A study of Mus musculus with 2 samples.

Results

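Polycomb subunits, histone demethylases, histone deacetylases, CHD remodellers, SWI/SNF subunits and the acetyltransferases Ep300 and Crebbp were compared between the molar mesenchyme of Osr2+/- and Osr2-/- mouse embryos. The Osr2 protein is a transcription factor with zinc fingers that is active in that tissue. The set holds 53 genes, fixed by name, out of 22072 gene symbols in the deposited tables. It was drawn up with earlier results of these data known. The 2 genotypes were measured with 1 library each, both at embryonic day 14.5 and on a mixed strain background: an Osr2+/- control and an Osr2-/- mutant. The control thus carries 1 mutant allele, although the title of the series speaks of wild type. Lower molar mesenchyme was cut from frozen sections by laser capture, each library pools tissue of 3 pairs, and the sex of the embryos and the extent of the Osr2 deletion are not given in the sources used here. Levels are RPKM, that is reads scaled to transcript length and to the number of mapped reads, summed over the transcripts of a gene. With n = 1 per genotype no difference has a replicate check, and no p-value is given.

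Gene activity depends on how tightly DNA is wound around histones and on which chemical marks the histones carry. Polycomb repressive complex 2 (PRC2) methylates lysine 27 of histone H3, and Polycomb repressive complex 1 (PRC1) binds that mark or ubiquitinates histone H2A, and together they keep developmental regulators silent. Demethylases and deacetylases remove marks, acetyltransferases add acetyl groups at enhancers and promoters, and CHD, ISWI and SWI/SNF enzymes use ATP to slide or evict nucleosomes. These genes are expressed in nearly all tissues, and several are known to be needed in neural crest and its derivatives, which include the dental mesenchyme.

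The mutant library was 6.38 times as deep as the control, at about 34.3 M against 5.38 M mapped reads, and the file names place them on different lanes, so that depth, lane and genotype cannot be told apart. Osr2 itself measured 38.7 RPKM (control) and 9.16 RPKM (mutant), 4.23-fold lower (3.69 to 4.84), in the direction of the labels. The Y-linked Uty and Kdm5d and the X-linked Xist also differed between the pools (values with the Y-linked demethylases), so that sex-linked expression and genotype cannot be told apart either. Mesenchymal markers summed to 422 and 340 RPKM (12 of 12 above 0 RPKM in both), dental epithelial markers to 42.8 and 60.7 RPKM (13 with a value of 14 listed, with Shh listed at 0 in the control), erythroid markers to 1025 and 811 RPKM (none of 7 at 0), macrophage markers to 11.7 and 8.72 RPKM (none of 7 at 0) and osteoblast markers to 16.7 and 49.5 RPKM (Ifitm5, Bglap and Spp1 listed at 0 in the control). The part of these markers in the values that follow was not tested.

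Chromatin genes were nearly level between the libraries. Of the 53 genes, 48 had at least 1 RPKM in at least 1 library and a usable quantification status, 4 (Ezh1, Cbx7, Kdm4b and Chd7) lay below that limit in both libraries, and Smarca4 was left out because its transcript rows failed quantification in the mutant library. Ratios were taken after adding 1 to each RPKM, mutant over control, and are given as log2; the added 1 shrinks the ratios of scarce genes. On that scale 43 of the 48 lay within a factor of 5/4 and the median was -0.07, against -0.05 over all 9779 genes tested. Eed alone was higher by at least 5/4 in the mutant library, 2.08% of the set, where 9.12% of all genes tested passed that limit. Cbx8, Kdm1a, Hdac7 and Hdac9 were lower by at least 5/4, 8.33% of the set, against 14.7% of all genes. At 1.5-fold, 0 of 48 were higher (2.55% of all genes) and 1, Cbx8, was lower (3.57% of all genes). Cbx8 reached the limit of 1 RPKM in the control library alone, where it is high, so its ratio among the tested genes had to be below 0. Centring the ratios on the median of all genes left the counts at 1 higher and 4 lower, against backgrounds of 11.7% and 11.6%, and values on the TPM scale (rescaled to equal sums over all genes) gave 2 and 6 of 52, against 21.6% and 22.5%.

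A fold printed with an interval is the plain RPKM ratio, and the 95% interval, from approximate read numbers, covers counting error only. Such an interval compares the reads of 2 libraries and says nothing on the spread between embryos. It lay above 1 for 1 of the 48 genes (Eed), against 7.87% of all genes tested, and below 1 for 11 (Cbx8, Kdm1a, Kdm3b, Kdm5b, Hdac7, Hdac9, Chd4, Chd8, Smarca2, Smarcc2 and Ep300), or 22.9%, against 15.9%. With reads taken as 50 bases the counts were 0 above and 9 below, since the intervals of Eed, Kdm3b and Chd4 then took in 1. The chromatin genes carry more reads than most, with a median of 167 reads in the control library against 57.0 over all genes tested, and more reads give narrower intervals. Their transcripts are also longer: the median of the longest transcript was 4627 bases for the 48 genes and 2868 bases over all genes. Among all genes tested, the share lower by at least 5/4 was 20.3% where the longest transcript was under 1500 bases and 7.10% from 6000 bases upward. In tissue taken as a whole, fewer cells of a type and less RNA per cell cannot be told apart.

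**Figure D1:**
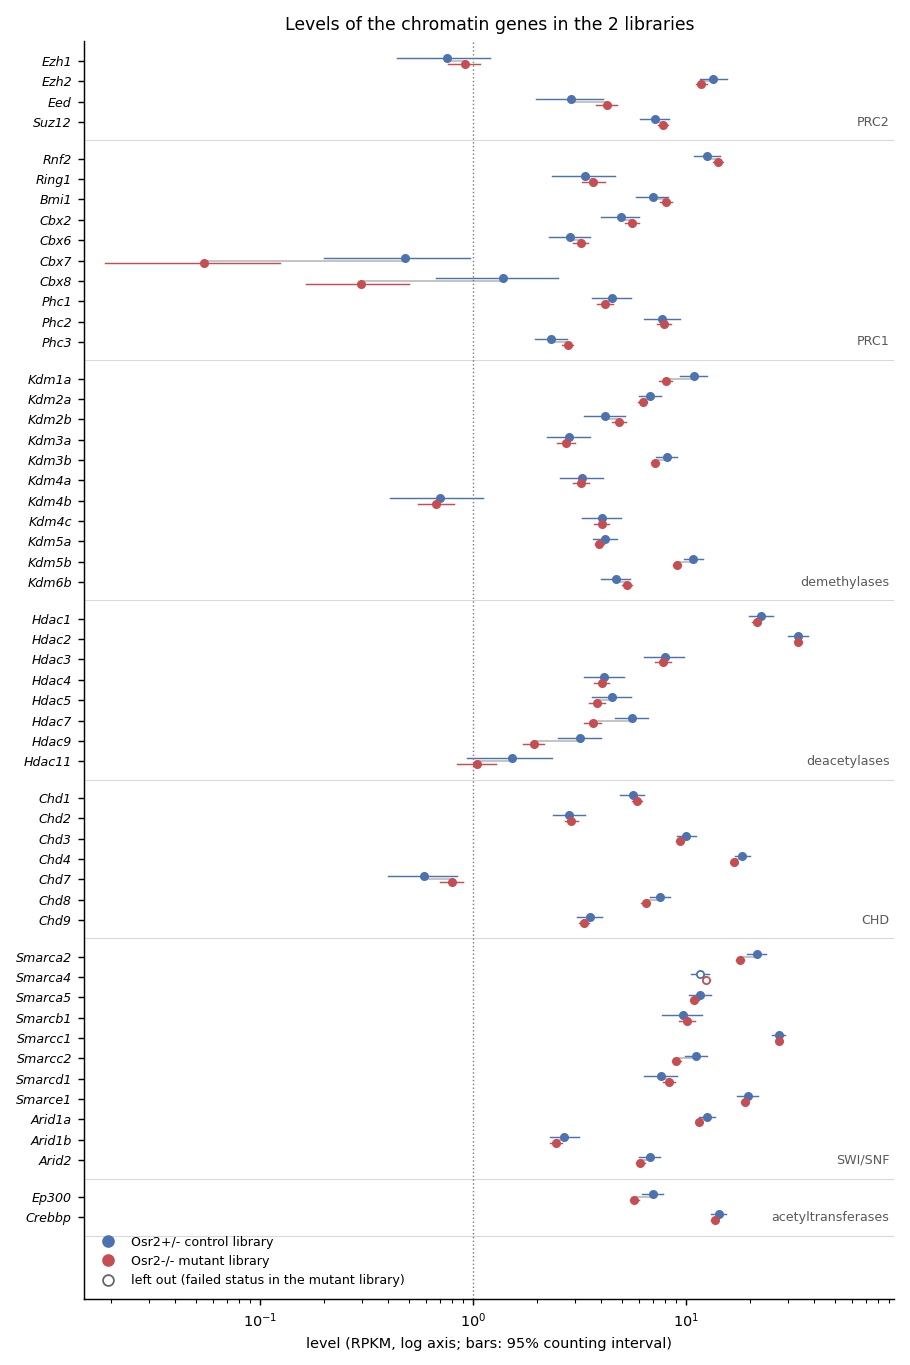
Level of each of the 53 genes in RPKM on a log axis, grouped by complex or enzyme class, in the Osr2+/- control (blue) and Osr2-/- mutant (red) library, 1 library each; bars are 95% counting intervals and the dotted line marks 1 RPKM. Most pairs of points lie close together, and Cbx7 and Cbx8 show the widest gaps and the lowest levels in the mutant library. In the control library Ezh1, Kdm4b and Chd7 lie below Cbx8.

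The order of the levels was the same at the top of the list in both libraries. Hdac2 led with 33.5 RPKM in the control against 33.6 RPKM in the mutant, followed by Smarcc1 with 27.1 and 27.4 RPKM and Hdac1 with 22.6 and 21.4 RPKM. In the control the counting interval of Hdac2 (30.2 to 37.2 RPKM) did not meet that of Smarcc1 (25.3 to 29.1), while those of Hdac1 (19.8 to 25.6), Smarca2 (19.4 to 23.8) and Smarce1 (17.4 to 21.8) ran into each other. In the mutant library Smarce1 (18.9 RPKM) stood above Smarca2 (17.9 RPKM), the reverse of the control, with intervals that met in both. At the low end of the tested genes stood Cbx8 and Hdac11, with 1.38 and 1.52 RPKM in the control. The 48 genes had median levels of 6.87 (control) and 6.18 RPKM (mutant), above the 3.60 and 3.43 RPKM of all genes tested.

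Within PRC2, Eed was higher in the mutant library while the other core subunits were close to level. Eed, the subunit that reads methylated lysine 27 and so stimulates the enzyme, was at 2.88 RPKM in the control against 4.25 RPKM in the mutant, 1.47-fold higher (counting interval 1.02 to 2.196) on 32 control reads; with reads taken as 50 bases that interval took in 1. Its locus is on chromosome 7, from 97103164 to 97129486 in mm9. Suz12, a scaffold subunit, was at 7.15 and 7.78 RPKM (1.09-fold, 0.93 to 1.29). Ezh2, the main methyltransferase of dividing cells, was at 13.4 RPKM in the control against 11.8 RPKM in the mutant, a fold of 0.88 with an interval from 0.75 to 1.03. Ezh1, its paralogue in resting cells, was below the filter at 0.752 and 0.913 RPKM. The median log2 ratio of the 3 tested PRC2 genes was 0.11, and with a filter of 5 RPKM, which leaves Eed out, it was -0.03. Ezh2 is a gene of dividing cells, and proliferation markers summed to 303 RPKM in the control against 310 RPKM in the mutant, with 10 of 18 above 0 on the log2 scale and a median of 0.04; their part in the value of Ezh2 was not tested.

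Most PRC1 genes lay slightly above the all-gene median, 2 of the 4 listed chromobox genes among them, and the other 2 chromobox genes, Cbx7 and Cbx8, were lower in the mutant library on 5 to 14 reads. Rnf2 and Ring1 encode the ubiquitin ligases of the complex. Rnf2 was at 12.6 and 14.1 RPKM (1.13-fold, 0.97 to 1.31) and Ring1 at 3.34 and 3.67 RPKM (1.10-fold, 0.78 to 1.601). Bmi1, the only PCGF partner of the ligases in the set, was at 6.96 and 8.03 RPKM (1.15-fold, 0.96 to 1.39). Of the polyhomeotic genes, whose products polymerise and cluster Polycomb complexes, Phc1 was at 4.49 and 4.16 RPKM, Phc2 at 7.74 and 7.91 RPKM and Phc3 at 2.33 and 2.78 RPKM. All of these intervals took in 1. Of the 9 tested PRC1 genes 7 had a log2 ratio above 0, with a median of 0.13, against 42.5% of all genes tested. The median was above 0 under each of the 8 other settings tried, from 0.12 to 0.19.

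Chromobox (CBX) proteins bring PRC1 to methylated lysine 27, and each complex holds a single one of them. Cbx8 had 1.38 RPKM (0.668 to 2.51) in the control library against 0.298 RPKM in the mutant library (0.164 to 0.498), a log2 ratio of -0.87 and 4.61-fold lower as a plain ratio (1.86 to 11.0). That value rests on about 10 control reads and 14 mutant reads, the latter from the deeper library. Cbx7 was lower still but below the filter. Its control level was 0.479 RPKM (0.199 to 0.966), from about 7 reads, and its mutant level 0.0547 RPKM (0.0188 to 0.124), from about 5 reads, 8.76-fold lower (2.52 to 32.9). The counting intervals of the 2 libraries did not overlap for either gene. Cbx2 was at 4.93 and 5.58 RPKM (1.13-fold, 0.92 to 1.41) and Cbx6 at 2.85 and 3.20 RPKM (1.12-fold, 0.89 to 1.43), so the more abundant chromobox genes did not share the lower level of the scarce ones.

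The chromobox genes sit in neighbouring groups, and the differences did not follow the neighbourhood. On chromosome 11 of mm9, Cbx2 (118884343 to 118892584) is followed after 7166 bases by Cbx8 (118899750 to 118902227), with log2 ratios of 0.15 and -0.87. On chromosome 15, Cbx6 (79654328 to 79664763) and Cbx7 (79746237 to 79763076) lie 81474 bases apart, with log2 ratios of 0.13 and -0.49. The 250 bases before the annotated start are shown for the most strongly different chromobox genes, from RefSeq on build GRCm38.p6 and read 5′ to 3′ on the strand of the gene; capitals mark each CG dinucleotide, the site of DNA methylation. The Cbx8 stretch is chr11:119040914-119041163 on the minus strand and holds 22 of them, and the Cbx7 stretch is chr15:79932647-79932896 on the minus strand and holds 23.
Cbx8: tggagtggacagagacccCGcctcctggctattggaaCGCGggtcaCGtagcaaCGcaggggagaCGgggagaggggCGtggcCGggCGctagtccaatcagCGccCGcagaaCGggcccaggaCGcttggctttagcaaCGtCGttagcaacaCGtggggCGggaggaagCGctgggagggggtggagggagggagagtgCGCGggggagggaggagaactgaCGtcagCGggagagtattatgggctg
Cbx7: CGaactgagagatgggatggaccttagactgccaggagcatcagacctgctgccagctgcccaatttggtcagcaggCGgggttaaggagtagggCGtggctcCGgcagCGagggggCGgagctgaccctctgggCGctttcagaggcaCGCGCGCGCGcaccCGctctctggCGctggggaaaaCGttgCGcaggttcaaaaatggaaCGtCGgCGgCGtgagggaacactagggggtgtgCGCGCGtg
Both are CG-rich, as is that of the level Cbx6 with 20. No window was available for Cbx2, and whether CG density bears on these differences was not tested.

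**Figure D2:**
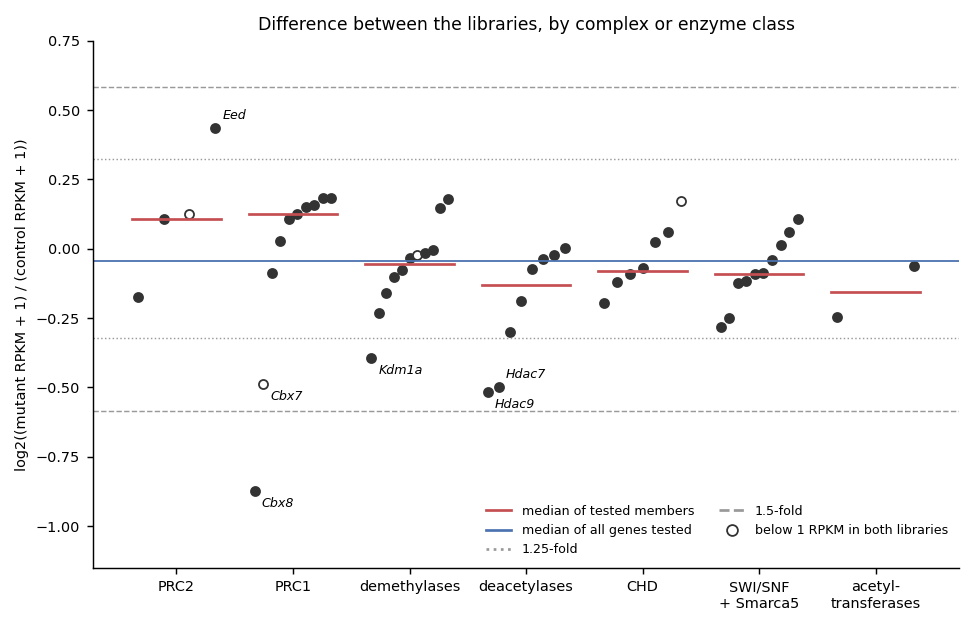
Difference between the libraries for each gene with a usable status, as log2((mutant RPKM + 1) / (control RPKM + 1)), by complex or enzyme class; red bars are the medians of the tested genes, the blue line the median of all genes tested (-0.05), dotted and dashed lines factors of 5/4 and 1.5-fold, and open points genes below 1 RPKM in both libraries. Cbx8, at -0.87, is the single tested gene past a dashed line.

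Histone demethylases lay within a factor of 5/4 apart from Kdm1a. Kdm1a encodes LSD1, which removes mono- and dimethyl marks from lysine 4 of histone H3 within CoREST and NuRD complexes. It had 10.9 RPKM (9.32 to 12.6) in the control library against 8.04 RPKM in the mutant library (7.50 to 8.60), 1.35-fold lower (1.14 to 1.59), on 176 control reads. Its locus is on chromosome 4, from 136106448 to 136158638 in mm9. Kdm5b, which removes methyl groups from lysine 4, was at 10.8 and 9.06 RPKM, 1.19-fold lower (1.06 to 1.33), and its paralogue Kdm5a at 4.18 and 3.92 RPKM. Kdm6b, which removes the Polycomb mark from lysine 27, went the other way by a small amount, at 4.67 and 5.28 RPKM (1.13-fold, 0.96 to 1.34).

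Demethylases of lysines 9 and 36 differed little. Kdm3b, a lysine 9 demethylase, was at 8.10 and 7.14 RPKM with an interval from 0.78 to 0.999, and Kdm3a at 2.83 and 2.73 RPKM. Of the KDM4 enzymes, which act on trimethylated lysines 9 and 36, Kdm4a was at 3.25 and 3.21 RPKM, Kdm4c at 4.03 and 4.02 RPKM and Kdm4b, below the filter, at 0.698 and 0.672 RPKM. The KDM2 genes, whose proteins bind unmethylated CG-rich DNA, were at 6.78 and 6.24 RPKM for Kdm2a and 4.16 and 4.84 RPKM for Kdm2b. Over the 10 tested demethylases the median log2 ratio was -0.06, close to the -0.05 of all genes tested. Of these 10, 8 (80%) were below 0, against 57.5% of all genes tested.

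The equal sums of Kdm4c hide the largest shift between transcript rows in the set. The file lists 2 Kdm4c transcripts whose starts lie 9382 bases apart in mm9 and in GRCm38. In the control library the upstream transcript (NM_001172095) was at 4.03 RPKM and the downstream transcript (NM_144787) at 0.000418 RPKM, and in the mutant library they were at 0.000515 and 4.02 RPKM. Each library thus gave 99.99% of the gene to a single start, and not to the same start. The upstream start follows chr4:74242247-74242496 (plus strand) with 0 CG dinucleotides, and the downstream start follows chr4:74251629-74251878 (plus strand) with 19. They are shown because the 2 libraries were assigned to different ones, with capitals as above.
Kdm4c, upstream: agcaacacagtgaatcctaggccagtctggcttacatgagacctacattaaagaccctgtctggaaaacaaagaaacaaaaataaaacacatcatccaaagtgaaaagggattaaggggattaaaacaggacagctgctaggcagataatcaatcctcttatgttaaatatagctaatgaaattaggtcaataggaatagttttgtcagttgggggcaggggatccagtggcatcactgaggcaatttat
Kdm4c, downstream: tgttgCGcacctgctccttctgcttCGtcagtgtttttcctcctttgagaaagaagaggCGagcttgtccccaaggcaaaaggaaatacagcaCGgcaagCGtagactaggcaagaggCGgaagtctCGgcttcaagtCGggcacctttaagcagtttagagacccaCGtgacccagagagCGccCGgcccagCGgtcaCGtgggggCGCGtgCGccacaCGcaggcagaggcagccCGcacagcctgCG
The 2 rows, of 4193 and 4257 bases, end at the same position, and the deposited values carry no bounds on how reads were divided between them. Whether the start differs between the genotypes was not tested.

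Among the deacetylases, the class I enzymes were level and 2 of the 4 class IIa enzymes were lower. Class I enzymes are the catalytic subunits of the NuRD, Sin3, CoREST and NCoR repressor complexes. Hdac1, Hdac2 and Hdac3 had folds of 0.95 (0.83 to 1.09), 1.003 (0.90 to 1.12) and 0.98, all with intervals that took in 1; Hdac3 was at 7.92 and 7.79 RPKM. Class IIa enzymes have little activity of their own, shuttle between cytoplasm and nucleus and bind MEF2 factors. All 4 had a log2 ratio below 0, with a median of -0.34, but for only 2 did the interval leave out 1, and 57.5% of all genes tested were below 0.

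Hdac9 and Hdac7 carried that difference. Hdac9 had 3.19 RPKM (2.51 to 3.99) in the control library against 1.93 RPKM in the mutant library (1.71 to 2.16), 1.652-fold lower (1.27 to 2.13) and at -0.52 on the log2 scale. Hdac7, known for its role in the vascular endothelium, was at 5.55 RPKM (4.63 to 6.61) and 3.64 RPKM (3.33 to 3.97), 1.53-fold lower (1.245 to 1.86) and at -0.50. In neither gene did the intervals of the 2 libraries overlap. Hdac9 lies on chromosome 12 from 35056362 to 35213754 and Hdac7 on chromosome 15 from 97623095 to 97674933 in mm9. Endothelial markers were mostly lower in the same library: all 7 tested of 8 listed had a log2 ratio below 0, with a median of -0.17. Tie1, at 1.37 RPKM (control) and 0.861 RPKM (mutant), reached the limit of 1 RPKM in the control library alone. Its ratio among the tested markers therefore had to be below 0. Of all genes tested, 57.5% were below 0. The remaining marker, Cldn5, lay below the filter and went the other way. Its level was 0.507 RPKM (control) and 0.921 RPKM (mutant), a log2 ratio of 0.35 and a fold of 1.82 (0.65 to 7.17). The 8 markers summed to 29.6 RPKM in the control against 24.0 RPKM in the mutant, with none at 0. The part of the endothelial markers in the value of Hdac7 was not tested. Hdac4, which restrains Runx2 in cartilage, was at 4.14 and 4.01 RPKM and Hdac5 at 4.49 and 3.82 RPKM. Hdac11, the class IV enzyme, was at 1.52 and 1.05 RPKM (0.69-fold, 0.42 to 1.18) on 20 control reads.

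CHD remodellers were level, with the largest downward values in Chd8 and Chd4. Chd4 and Chd3 are the nucleosome-moving ATPases of the NuRD deacetylase complex. Chd4 was at 18.4 and 16.9 RPKM (0.92-fold, 0.84 to 0.999) and Chd3 at 10.03 and 9.35 RPKM (0.93-fold, 0.84 to 1.04). Chd8, a remodeller that binds beta-catenin, was at 7.55 and 6.45 RPKM, 1.17-fold lower (1.04 to 1.31). Chd1 and Chd2, which act at transcribed genes, were at 5.605 and 5.89 RPKM and at 2.83 and 2.90 RPKM, and Chd9 was at 3.52 and 3.31 RPKM. Chd7, mutated in CHARGE syndrome and needed in neural crest, stayed below the filter at 0.591 and 0.794 RPKM (1.34-fold, 0.92 to 2.03, on 30 control reads). None of the 6 tested CHD genes was past a factor of 5/4, and their median log2 ratio was -0.08.

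SWI/SNF subunits were the most abundant group and also lay within a factor of 5/4. Their 10 tested genes summed to 130 RPKM in the control against 123 RPKM in the mutant, with a median log2 ratio of -0.09 and a range from -0.28 to 0.11. Of the core subunits, Smarcc1 had a fold of 1.01 (0.94 to 1.09), Smarcb1 was at 9.64 and 10.1 RPKM, Smarce1 at 19.5 and 18.9 RPKM and Smarcd1 at 7.61 and 8.29 RPKM. Smarcc2, the paralogue of Smarcc1, was at 11.2 and 9.004 RPKM, 1.24-fold lower (1.09 to 1.41). The DNA-binding ARID subunits, which define the BAF and PBAF forms of the complex, were at 12.5 and 11.5 RPKM for Arid1a, 2.68 and 2.46 RPKM for Arid1b and 6.75 and 6.11 RPKM for Arid2. Smarca5, listed with them by name, is the ATPase of ISWI complexes and was at 11.7 and 10.9 RPKM.

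The 2 SWI/SNF ATPases were quantified from several transcript rows each. Smarca2 was at 21.5 and 17.9 RPKM, 1.20-fold lower (1.07 to 1.34), as the sum of a long row of 5813 bases and a short row of 1962 bases. The long row was at 7.64 and 7.49 RPKM and the short row at 13.9 and 10.45 RPKM. As assigned, the difference lay in the short row, which holds 64.5% of the level in the control and 58.3% in the mutant. Both rows end at the same position, and the deposited values carry no bounds on how reads were divided between them. Smarca4 had 3 transcript rows, and all 3 carry a failed status in the mutant library. As deposited they summed to 11.7 RPKM in the control against 12.5 RPKM in the mutant (1.07-fold, 0.96 to 1.19), values that entered no count above. Smarca4 stood below Smarca2 with both Smarca2 rows summed (ratios of 0.54 and 0.69) and above it with the long row alone (1.53 and 1.66), a comparison chosen after the values were seen.

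Of the acetyltransferases, coactivators that acetylate lysine 27 at enhancers, Ep300 was lower in the mutant library and Crebbp was level. Ep300 was at 6.97 and 5.71 RPKM, 1.22-fold lower (1.08 to 1.37). Crebbp, the more abundant of the 2, was at 14.2 and 13.6 RPKM (0.95-fold, 0.87 to 1.04). Their log2 ratios were -0.25 and -0.06.

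Beyond Kdm4c, the split over transcript rows changed the picture of 3 further genes by over 0.3 on the log2 scale when the highest row stood in for the sum. The rule looked at the 14 genes with several rows and a usable status. For Suz12, a shorter row held 28.6% of the level in the control (2.04 RPKM) and was at 0.000170 RPKM in the mutant, so that its longer row alone went from 5.11 to 7.78 RPKM. For Smarcb1, with rows of 1630 and 1657 bases, the shares went from 71.6% and 28.4% to 48.9% and 51.1%. For Hdac7, with 8 rows, 1 row held 79.6% in the control and 33.7% in the mutant, where another 2 rows held 35.2% and 31.1%. The sums of Suz12 and Smarcb1 were level, and that of Hdac7 was lower in the mutant library, as given above.

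**Figure D3:**
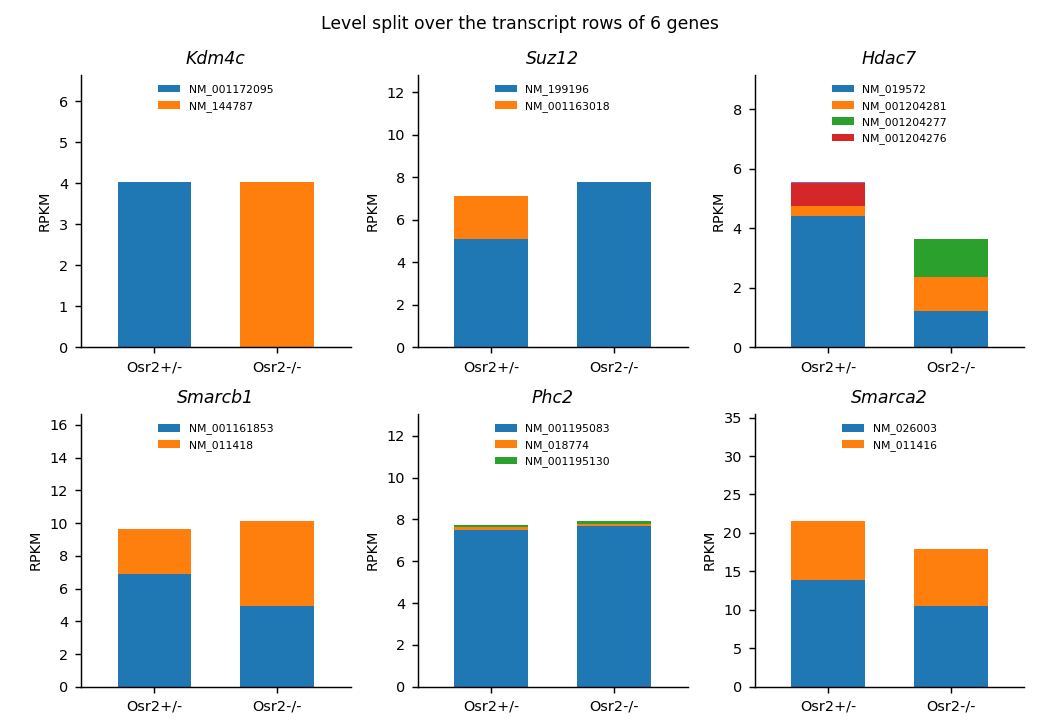
RPKM of the transcript rows of Kdm4c, Suz12, Hdac7, Smarcb1, Phc2 and Smarca2, stacked per library (1 control and 1 mutant library; rows at no more than 0.05 RPKM have no legend entry). The Kdm4c bars have equal height and a different row in each library, while Phc2 gives 96.8% and 96.9% to the same row.

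Phc2, described here after its rows were seen, was divided over its rows in the same way in both libraries, unlike Kdm4c. Of its 3 starts, spread over 72869 bases, the row of the last was assigned 7.498 RPKM in the control against 7.66 RPKM in the mutant. The rows of the other 2 were assigned 0.122 to 0.123 RPKM in either library. The windows before the starts hold 13, 1 and 34 CG dinucleotides, in the order of the gene. The last start is called the start in use below, after the reads assigned to its row. The window of the middle start (chr4:128688488-128688737) and that of the start in use (chr4:128727321-128727570), both on the plus strand of GRCm38.p6, read as follows, with CG in capitals.
Phc2, middle start: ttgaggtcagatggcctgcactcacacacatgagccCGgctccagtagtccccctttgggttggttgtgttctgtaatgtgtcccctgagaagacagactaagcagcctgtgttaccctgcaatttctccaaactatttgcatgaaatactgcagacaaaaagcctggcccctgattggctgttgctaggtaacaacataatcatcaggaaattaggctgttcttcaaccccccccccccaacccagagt
Phc2, start in use: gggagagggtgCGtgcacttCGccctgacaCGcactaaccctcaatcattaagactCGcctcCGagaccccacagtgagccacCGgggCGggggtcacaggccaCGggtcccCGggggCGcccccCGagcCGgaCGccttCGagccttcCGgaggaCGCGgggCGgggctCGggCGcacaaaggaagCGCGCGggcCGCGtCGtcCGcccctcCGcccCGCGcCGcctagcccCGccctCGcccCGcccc
The window of the last start has the most CG of the 3, while the row of the first start, with 13, was assigned as little as that of the middle one with 1. The 3 rows end at the same position, and the deposited values carry no bounds on how reads were divided between them. Which start is used was not tested.

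CG-rich starts were common across the set. RefSeq gave 54 windows for 39 of the 53 genes, and 45 of them (83.3%) held at least 10 CG dinucleotides in 250 bases, with a median of 21. The motif searched was CG, which reads the same on both strands. Among all 32851 windows 37.8% held at least 10, with a median of 6, and among windows of genes tested in these libraries 76.0%, with a median of 17. At least 1 CG was present in 94.4% of the windows of the set, in 99.2% of those of genes tested and in 92.1% of all windows. Of the 4 genes lower by at least 5/4, Hdac9 had CG-poor windows, with 0 and 2, and Cbx8 (22) and Kdm1a (21) had CG-rich ones, and the 4 windows of Hdac7 held 5, 25, 21 and 6. Crebbp had the densest window, with 44.

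Ratios of paralogues within a library do not depend on how the libraries were scaled. Of the set, 10 pairs were compared, 9 of them with a usable status, and for 7 of the 9 the counting intervals of the 2 libraries overlapped. Ezh2 exceeded Ezh1 by 17.9 times in the control (10.9 to 31.4) and 12.9 times in the mutant (10.8 to 15.6). Arid1a exceeded Arid1b by 4.67 and 4.66 times, Rnf2 exceeded Ring1 by 3.76 and 3.85 times, and Kdm5b exceeded Kdm5a by 2.58 and 2.31 times. Chd4 stood at 1.83 and 1.80 times Chd3, Hdac2 at 1.49 and 1.57 times Hdac1, and Ep300 at 0.49 and 0.42 of Crebbp. The order of the paralogues was the same in both libraries for these 7 pairs.

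The intervals did not overlap for 2 pairs. Smarcc1 stood at 2.43 times Smarcc2 in the control (2.12 to 2.79) and 3.04 times in the mutant (2.87 to 3.23). Cbx2 stood at 10.3 times Cbx7 in the control (4.91 to 25.4) and 102 times in the mutant (44.9 to 298), on about 7 and 5 Cbx7 reads. The first pair is abundant, and the second rests on a gene near the limit of detection.

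**Figure D4:**
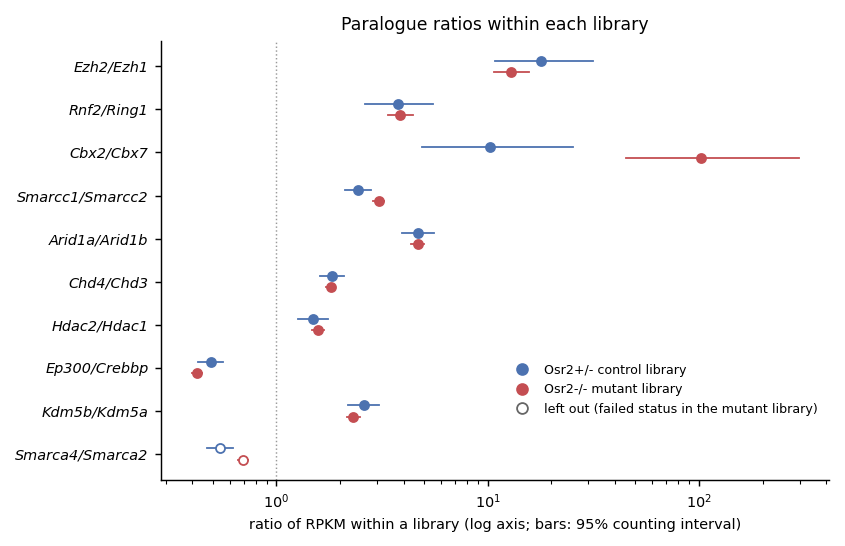
Ratio of RPKM of paralogous genes within the control (blue) and mutant (red) library on a log axis, with 95% counting intervals; open points use the Smarca4 rows with a failed status. Among the filled points the intervals of the 2 libraries fail to meet for Cbx2/Cbx7 and Smarcc1/Smarcc2, and among the open points for Smarca4/Smarca2.

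A wider list of 153 chromatin genes outside the set was read the same way. Of 135 tested, 8 were higher (5.93%, against 9.12% of all genes tested) and 10 lower by at least 5/4 (7.41%, against 14.7%), with a median log2 ratio of -0.04. At 1.5-fold 1 was higher and 2 were lower, where 2.55% and 3.57% of all genes passed. The list includes the partners of the genes above, such as PRC1 cofactors, histone methyltransferases, NuRD and Sin3 subunits, other remodellers, and DNA methyltransferases. Within a factor of 5/4 lay 76.2% of all genes tested, 30 of 31 histone methyltransferases, all 9 tested DNA methylation genes and all 7 tested readers of histone marks. The same held for 13 of 18 Polycomb partners, with 4 lower and a median of -0.10, and for 9 of 13 other acetyltransferases, with 2 lower and 2 higher. Rcor2, a CoREST subunit that works with LSD1, was at 1.33 and 3.31 RPKM, 2.49-fold higher in the mutant library (1.46 to 4.58) on 14 control reads, opposite in direction to Kdm1a. Pcgf2, the close paralogue of Bmi1 and named after its value was seen, was at 13.4 and 9.13 RPKM, 1.46-fold lower (1.23 to 1.73).

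The 2 genes of the wider list that were at least 1.5-fold lower are the Y-linked demethylases Kdm5d and Uty. Kdm5d had 2.71 RPKM in control tissue and is listed at 0 for the mutant. Uty had 2.15 RPKM and is listed at nearly 0. Their X-linked partners, which remove methyl groups from lysine 4 and lysine 27, were nearly level: Kdm5c was at 7.07 and 6.21 RPKM (0.88-fold, 0.76 to 1.01) and Kdm6a at 7.79 and 8.47 RPKM (1.09-fold, 0.94 to 1.26). Added up, Kdm5c and Kdm5d came to 9.78 RPKM in the control against 6.21 RPKM in the mutant, and Kdm6a and Uty to 9.94 and 8.47 RPKM. Xist, the RNA of the inactive X chromosome, was at 5.21 and 30.0 RPKM. The Y-linked genes made up 27.7% and 21.6% of these sums in the control.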

How the data were processed

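Lower molar mesenchyme of Osr2+/- and Osr2-/- embryos was profiled by RNA sequencing, 1 library per genotype. Per the labels' protocols, tissue was laser-captured and cDNA was made with an amplifying kit. TopHat 1.4.1, Bowtie 0.12.7 and build mm9 were used, per the submitters' processing notes, and the aligner settings and the Cufflinks version are not given in the sources used here. The authors deposited RPKM and unscaled coverage (the mean read depth over a transcript) for 28107 RefSeq transcript rows, per the file headers; amplification and the division of reads among overlapping transcripts can both move these values. Transcript lengths come from the same files, whose other columns, per the file headers, give locus and status.

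The 54 rows flagged as failed or as holding too much data in 1 of the libraries were dropped, and RPKM was summed per gene symbol, giving 22054 genes; every row of Smarca4 was among the dropped ones. Ratios were computed with a pseudocount of 1 for 9779 genes with at least 1 RPKM in 1 library. Read numbers are coverage times length over 44.3 bases, the median product between 20 and 66 bases, averaged over the libraries; 24.1% and 23.1% of low values came out within 0.1 of a whole read, so they are approximations. Exact Poisson and Clopper-Pearson 95% intervals, centred on the printed RPKM or fold, cover counting error only, since amplified reads are not independent molecules. The interval code was tested on simulated data. Python 3.11.15, scipy 1.17.1 and pandas 2.3.3 were used.

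Every gene of the set could be named. Transcript rows were described where the highest row and the sum differed by over 0.3 (log2), and outside that rule for Smarca2 and Phc2. Other genes to be named were those of the wider list past 1.5-fold, the X- and Y-linked demethylase pairs, Osr2 and Xist. The genes and lists were chosen with earlier results of these data known. Of 153 wider genes, 149 had a usable value. Promoter windows were matched by symbol for 39 of 53 genes. For 35 of these genes the orientation of at least 1 window was checked against transcripts. The printed downstream window of Kdm4c found no match in that check. The starts of Kdm4c and Phc2 were paired between builds by order, and the distances between them were equal. Alternatives were another pseudocount, other filters on low values, 3 other scalings, the highest transcript row, rows of any status and reads of 50 bases.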

Additional observations from a re-analysis of the deposited data

Results flagged for a closer look

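Smarca4 was left out of the counts of tested genes because its 3 transcript rows failed quantification in the mutant library. Yet those rows hold a level of 12.5 RPKM there, above the 11.7 RPKM of the control library. The failed status concerns the estimate of the rows, and the level of the gene in the mutant library is therefore uncertain by an amount the deposited values do not give.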

How the results depend on the processing

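No paired analysis was possible because each genotype has 1 library. Of 100 values of counts, medians and paralogue ratios recomputed under the alternatives, 91 stayed within their error or within 1.5 times. The count of genes at least 1.5-fold lower was 3 with a pseudocount of 0.1 (Cbx8, Hdac7 and Hdac9), 0 when only genes at 5 RPKM or more were kept, without Cbx8, 3 on the TPM scale (Cbx7, Cbx8 and Hdac9) and 3 when each gene was represented by its highest transcript row (Cbx8, Kdm4c and Hdac7), against 1 as reported. Over all genes tested the share at least 1.5-fold lower was 8.51%, 2.74%, 11.6% and 7.10% in these 4 settings, against 3.57% as reported. The count at least 1.5-fold higher was 1 (Eed) on the TPM scale, where the median of PRC1 was 0.19, against 0 and 0.13. With reads of 50 bases the count of intervals above 1 was 0, since that of Eed then took in 1, and the count below 1 was 9. With the highest transcript row the ratio of Smarcc1 to Smarcc2 was 2.98 (control) and 3.78 (mutant), because the smaller Smarcc2 rows drop out. Log2 ratios of single genes moved beyond their counting interval under that setting alone, for 5 genes: Suz12 (0.52), Phc3 (-0.08), Kdm4c (-2.33), Hdac7 (-1.28) and Smarcb1 (-0.41). Depth limits the scarce genes: Cbx7, Cbx8, Ezh1 and Kdm4b rest on about 7, 10, 17 and 17 control reads.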
